A study of Canis lupus familiaris with 60 samples.

Results

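Gene expression at saline patch sites was compared between 6 sensitized and 6 nonsensitized dogs 24 hr after the patch was applied. Each dog gave 1 array at this site, so 12 of the 60 arrays of the study entered the comparison, and their group labels place them in it. All 12 dogs were Beagles aged 2 to 3 yr (mean 2.3). The sensitized dogs, 4 males and 2 females, reacted to the house dust mite Dermatophagoides farinae in an intradermal test and carried mite-specific IgE. They had been sensitized in earlier work by mite paste on the skin, so they are a model of induced and not of spontaneous disease. The nonsensitized dogs, 2 males and 4 females, were nonallergic controls. The saline site of each dog lay on the clipped chest under a bandage, received 50 µl of saline and was sampled under local lidocaine with an 8 mm punch. The same dogs carried patches with 75 mg of mite paste at other sites of the chest, so no dog was free of allergen. Earlier biopsies had also been taken from it at 0 hr and 6 hr. The sex of single dogs was not given, so the imbalance in sex and sensitization cannot be told apart, and 1 biopsy of whole skin stands for 1 dog.

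Skin is built of an epidermis of keratinocytes with melanocytes and Langerhans cells, and a dermis of fibroblasts, vessels, hair follicles and resident immune cells. Mast cells lie around the vessels of the dermis. They bind IgE through the high-affinity receptor, whose chains are encoded by FCER1A, MS4A2 and FCER1G, and release histamine, made by HDC, and chymase, encoded by CMA1, when allergen links the bound IgE. Dendritic cells and macrophages take up antigen and show its peptides on MHC class II molecules, in the dog called DLA. A saline patch carries the clipping, moisture, bandage and handling of an allergen patch without the allergen. It is the control against which the allergen site of a dog is read, so a difference between the dogs at saline sites enters that reading.

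The arrays hold 61657 spots besides controls, and 44219 probes of 39551 identifiers were well above background on at least 5 of the 6 arrays of a group. Levels are given as normalized log2 signals, in which 1 unit is a 2-fold difference, and a difference is always sensitized minus nonsensitized. Levels of different genes cannot be ranked, because probes differ in brightness. A gene symbol was available for 1266 genes. Markers of the labelled tissue were bright in both groups. The keratin gene KRT1 was at 17.02 in sensitized and 17.00 in nonsensitized dogs, and the dermal matrix gene DCN was at 16.89 and 16.95. None of the 12 genes of a list of sex hormone and Y-linked genes had a named probe. The median processed signal per array was 124 ± 3.22 in sensitized and 131 ± 11.3 in nonsensitized dogs (mean ± SD, n = 6 each), a difference of −7.32 (exact two-sided permutation p = 0.162). The share of spots well above background was 75.6 ± 2.6% and 73.2 ± 2.92% (exact two-sided permutation p = 0.171). In each of the 12 arrays the probes that differ most between dogs matched the other arrays of the same dog best (r from 0.89 to 0.97 over 300 probes).

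The 12 arrays fell apart by a running specimen number that ends the array names and whose meaning the labels do not give. Numbers 1 to 12 held 5 nonsensitized dogs and the sensitized dog 2838, and numbers 13 to 24 held 5 sensitized dogs and the nonsensitized dog 2802. The first principal component, with 31.1% of the variance, lay between −0.25 and −0.12 on the first 6 arrays and between 0.12 and 0.28 on the others. With sensitization in the fit, 4165 probes (9.42%) differed between numbers 1 to 12 and 13 to 24 by at least 1.5-fold at an adjusted p below 0.05. Of these probes 3237 were higher and 928 lower in numbers 13 to 24. In the 24 hr allergen arrays, which were not used to find these probes, 4128 of the 4165 differed in the same direction, and 1986 also passed both limits there, where 5.62% of all probes did. These arrays came from the same dogs, and all dogs fitted there but 2838 and 2841 kept their set of numbers. The part of single dogs in this agreement was not tested. A score was formed per array as the mean of these probes, signed by their direction and centred on all arrays. Its values on the saline arrays follow from the choice of probes and show nothing by themselves. On the allergen arrays it was −1.07 to −0.71 in numbers 1 to 12 and 0.34 to 0.67 in numbers 13 to 24, and it was 0.21 or higher on the arrays of 0 hr and 6 hr. The allergen array of dog 2838, whose saline array was among numbers 1 to 12, scored 0.34, the lowest of numbers 13 to 24. That of dog 2841, whose saline array was among numbers 13 to 24, scored −0.71, the joint highest of numbers 1 to 12. Dog 2802 scored highest of the nonsensitized dogs in untreated skin (1.10), at 6 hr saline sites (0.63) and at 6 hr allergen sites (0.91). Number and sensitization are almost confounded in the 12 arrays. A second fit held the 2 sets of numbers as a block, called the specimen block. The blocked value rests on dog 2838 against 5 nonsensitized dogs and on 5 sensitized dogs against dog 2802.

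**Figure D1:**
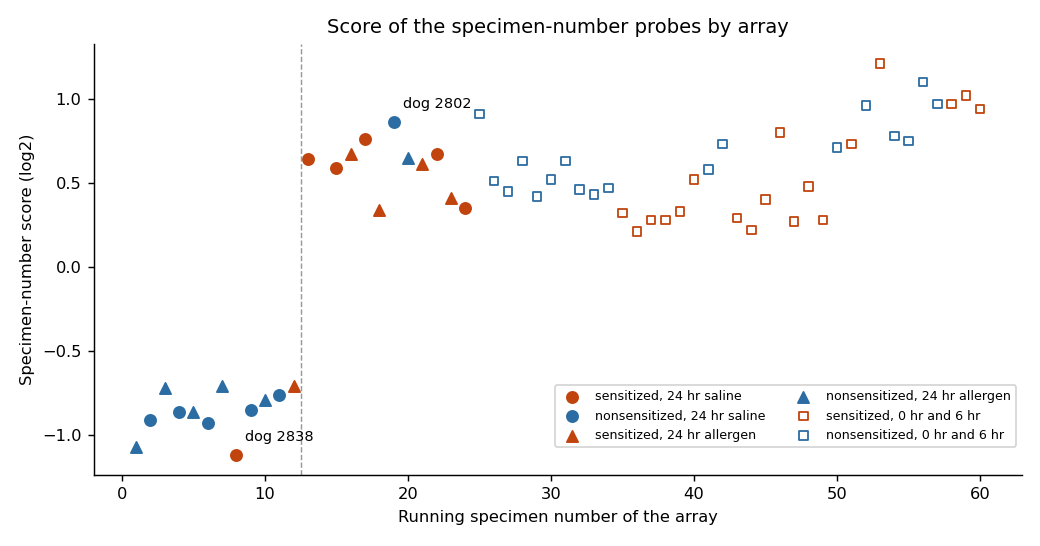
Score of the specimen-number probes (vertical axis, log2 units) on 59 arrays against their running specimen number, with 24 hr saline sites as circles, 24 hr allergen sites as triangles and 0 hr and 6 hr sites as open squares, red for sensitized and blue for nonsensitized dogs. The 12 arrays numbered 1 to 12, left of the dashed line, lie at −0.71 or lower, and dogs 2838 and 2802 are the saline arrays whose set of numbers is not that of their group. The saline arrays chose the probes, so the circles follow from that choice. The other symbols are further arrays of the same dogs and so are not fully independent of it.

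One identifier differed between the groups as a differentially expressed gene (DEG), defined as at least 1.5-fold with a limma p below 0.05 after Benjamini-Hochberg adjustment over the 44219 probes (0.00226% of the probes). It is TC65471, an array transcript without a gene symbol. Its level was 5.01, 5.24 and 5.64 in sensitized dogs (lowest, median and highest) and 6.23, 6.52 and 7.01 in nonsensitized dogs. Each sensitized dog lay below each nonsensitized dog. The difference was −1.29 (SE 0.14, adjusted p = 0.0274). It was −0.98, −1.45 and −1.47 within the 3 slides and −1.27 with the specimen block (adjusted p = 0.447). The sign held under the other settings tried but the call did not under several, with an adjusted p of 0.202 with the slide as a block and 0.0822 with scaling to the 75th percentile. The adjusted p was also above the limit when any of 7 dogs was left out (2839, 2840, 2841, 2853, 2716, 2800 or 2847), at 0.069 to 0.142. In a joint limma fit of 59 arrays it was −1.22 (SE 0.27) at 24 hr saline sites. In that fit of the same dogs it was −1.09 (SE 0.27) in untreated skin and −0.99 (SE 0.27) at 6 hr saline sites. The ranges of the groups overlapped in untreated skin and at 6 hr saline sites. The difference at 24 hr did not differ detectably from that in untreated skin (−0.13, SE 0.39, adjusted p = 0.946).

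Many probes differed at an unadjusted p below 0.05 and did not pass the adjustment. There were 4875 probes (11%) higher and 3670 probes (8.3%) lower in sensitized dogs. With the specimen block these shares were 2.54% and 2.47%, and with the slide as a block 4.83% and 4.79%. The other sites of the same dogs were tested in the joint fit, over 45972 probes. There the shares at 24 hr saline sites were 12.4% and 9.46%. In that joint fit they were 1.95% and 1.4% in untreated skin and 1.77% and 1.76% at 6 hr saline sites. At 24 hr allergen sites they were 20% and 16.8%. Of the 1266 genes with a symbol, 119 (9.4%) were higher and 142 (11.2%) lower. The symbols had 2 origins, and the direction turned with them. Of the 865 genes named through RefSeq 11.8% were higher and 10.2% lower. The other 401 symbols came almost all from a list that the study drew from a contrast in which the saline arrays of the sensitized dogs count as negative and those of the nonsensitized dogs as positive, and 4.24% of these genes were higher and 13.5% lower. The sign of a gene named in this way is therefore not independent of how it was named. The groups did not overlap for 76 probes (0.172%) higher and 106 probes (0.24%) lower in sensitized dogs. No gene with a symbol was a DEG, and the smallest adjusted p of those named below was 0.223. The genes below are therefore described by their levels. Where a gene is said to be higher or lower, its unadjusted limma p was below 0.05, which is to be read against these background shares, and no gene with a symbol passed the adjusted limit. Of 58 identifiers described here that were higher or lower in this sense, DBI and HAPLN3 aside, 34 were so with the specimen block too, with the same sign, and the other 24 are given with their blocked values. Leaving out single dogs moved the number of DEG widely. It was 2521 without dog 2838, which leaves every sensitized dog in numbers 13 to 24, 50 without dog 2802, and 3842 without both, when the sets of numbers and the groups are the same split.

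Mast cell genes were lower at the saline sites of sensitized dogs at the unadjusted limit, with adjusted p of 0.224 to 0.258. All 4 of FCER1A, MS4A2, HDC and CMA1, among the 6 mast cell markers measured of 13 listed, were lower at an unadjusted p below 0.05, none of the markers was higher, and the median difference of the list was −0.58, against 0.00 over all probes. HDC was named through the study's list, and without it the median of the other 5 was −0.57. MS4A2, which encodes the signal-amplifying beta chain of the IgE receptor, was at 9.16, 9.59 and 10.17 in sensitized dogs and at 9.42, 10.46 and 11.10 in nonsensitized dogs. The groups overlapped only through the nonsensitized dogs 2716, 2704 and 2845, and 3 nonsensitized dogs (2800, 2802 and 2847) lay above every sensitized dog. The difference was −0.79 (SE 0.28). HDC, which makes histamine from histidine, was at 6.93, 7.38 and 7.90 against 7.19, 8.11 and 8.88. Here 4 nonsensitized dogs lay above every sensitized dog, and dogs 2704 and 2716 lay within their range. The difference of HDC was −0.71 (SE 0.26). FCER1A, the chain that binds IgE, was at 10.81, 11.15 and 11.91 against 10.95, 11.86 and 12.69 (difference −0.58, SE 0.27). CMA1, the mast cell protease chymase, was at 8.80, 9.31 and 9.73 against 9.23, 9.92 and 10.37 (difference −0.57, SE 0.22).

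The other mast cell markers did not follow. KIT, the receptor for the mast cell growth factor that melanocytes also carry, was at 8.18 in sensitized and 8.00 in nonsensitized dogs (medians), with a difference of 0.05 (SE 0.14) whose sign turned under other settings. FCER1G, a signalling chain shared with macrophages and other myeloid cells, was at 7.11 and 7.19 with a difference of −0.15 (SE 0.22). The summed linear signal of the 6 markers was 3574 to 6587 in sensitized and 3869 to 11102 in nonsensitized dogs, and no marker was at background in either group. In whole-skin biopsies fewer cells of a type and less RNA per cell cannot be told apart.

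The difference in mast cell genes was wider with the specimen number in the fit. With the specimen block the median of the list was −0.93, and the same 4 genes were again lower at the unadjusted limit, by −1.12 for HDC to −0.86 for CMA1. The median was −0.60 within numbers 1 to 12 and −1.20 within numbers 13 to 24, and −0.44, −0.68 and −1.13 within the 3 slides. It was −0.53 without dog 2838 and −0.44 without dog 2802. Without both dogs the differences of the 4 genes were −0.66 to −0.37. No adjusted p passed in the blocked fit (0.965 for each of the 4 genes).

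**Figure D2:**
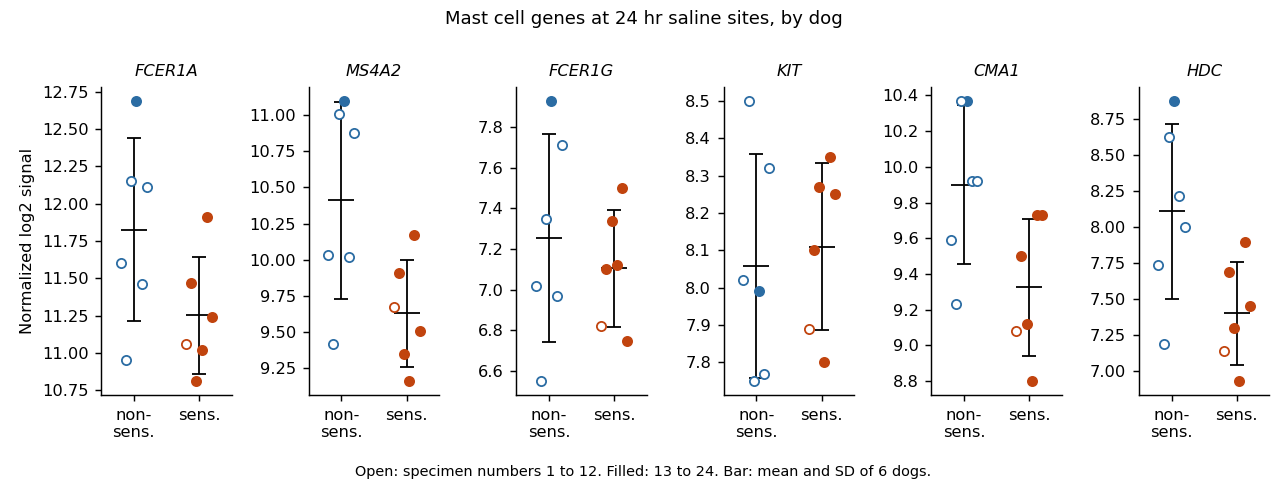
Normalized log2 signal (vertical axes) of the 6 mast cell markers in the nonsensitized (blue) and sensitized (red) dogs at 24 hr saline sites, 1 point per dog, open for specimen numbers 1 to 12 and filled for 13 to 24, with bars for mean and SD of 6 dogs. FCER1A, MS4A2, CMA1 and HDC sit lower in sensitized dogs, with dog 2802 (the filled blue point) highest or joint highest, and KIT does not separate the groups.

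Melanocyte genes were higher in sensitized dogs at the unadjusted limit, with adjusted p of 0.223 to 0.257. All 5 of the 5 melanocyte markers measured (of 8 listed) were higher at an unadjusted p below 0.05, with a median difference of 1.32. SLC45A2, a transporter of the melanosome, was at 7.69, 8.06 and 8.73 in sensitized dogs and at 5.67, 6.80 and 8.41 in nonsensitized dogs. The nonsensitized dog 2704 lay within the sensitized range and the 5 others lay below every sensitized dog. The difference was 1.32 (SE 0.38). PMEL, which forms the fibrils on which melanin is laid down, was at 12.47, 12.98 and 13.48 against 10.96, 11.64 and 12.58 (difference 1.11, SE 0.26). Its second, dimmer probe gave 1.91.

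TYRP1, an enzyme of melanin synthesis, varied most between dogs. It was at 9.91, 10.30 and 11.58 in sensitized and at 4.66, 8.82 and 11.14 in nonsensitized dogs, with a difference of 1.86 (SE 0.85). The lowest value, that of dog 2845, was not well above background, and without this dog the difference was 1.04. Dog 2845 was the lowest in TYRP1, SLC45A2, MLANA, PMEL and MC1R, and dog 2704 was the highest nonsensitized dog in each. MLANA, a melanosome protein, was 1.45 higher (SE 0.52). MC1R, the receptor for the melanocyte-stimulating hormone, was dim and 0.30 higher (SE 0.09). With the specimen block the median of the list was 1.65, but only 2 of the 5 genes were still higher at an unadjusted p below 0.05, SLC45A2 at 1.65 and MLANA at 1.86. TYRP1 (2.25), PMEL (0.69) and MC1R (0.25) were not. Within the slides it was 1.85, 0.99 and 1.60. In untreated skin the median difference of the same genes was 0.68, with none past an unadjusted p of 0.05. At 6 hr saline sites it was 1.09, with 3 of 5 higher, and SLC45A2 was 1.23 higher there (SE 0.47). The 24 hr difference minus that at the other site had a median over the list of 0.59 against untreated skin and 0.24 against 6 hr saline sites, and for SLC45A2 it was 0.06 against 6 hr (SE 0.66). Coat markings and the exact place of a biopsy were not given for single dogs, and their part was not tested.

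**Figure D3:**
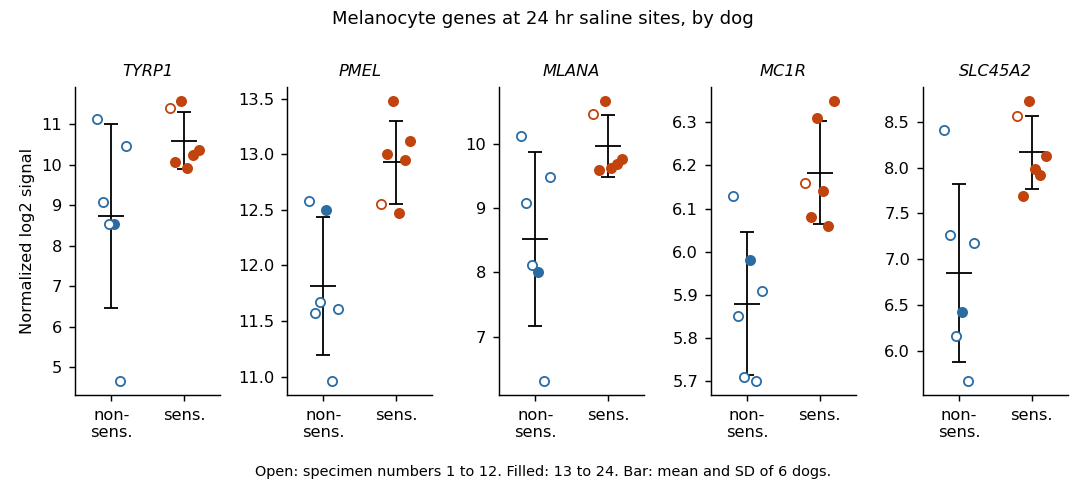
Normalized log2 signal (vertical axes) of the 5 melanocyte markers by dog at 24 hr saline sites, blue for nonsensitized and red for sensitized dogs, open for specimen numbers 1 to 12 and filled for 13 to 24, with bars for mean and SD of 6 dogs. The sensitized dogs cluster at the upper end in each panel, while the nonsensitized dogs spread from 4.66 to 11.14 for TYRP1.

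Of 13 genes of antigen presentation 3 were lower in sensitized dogs at an unadjusted p below 0.05 and none was higher. The differences ran from −0.68 to −0.16 with a median of −0.29. Among the 9 genes named through RefSeq 2 were lower and the median was −0.28, and among the 4 named through the study's list, HLA-DMA and CD74 included, it was −0.46. HLA-DMA, so named in the study for a chain that loads peptides onto MHC class II, was at 8.27, 8.57 and 9.21 in sensitized and at 8.85, 9.29 and 9.51 in nonsensitized dogs. One sensitized dog, 2853, reached into the nonsensitized range. The difference was −0.55 (SE 0.16). DLA-DMA, the dog symbol for the same chain, is counted as a separate member of the list and did not pass. It was at 9.38 to 10.57 in sensitized and at 9.69 to 10.87 in nonsensitized dogs. CTSS, a protease that cuts the invariant chain held by class II molecules, had a difference of −0.51 (SE 0.20). DLA-DQA1, a class II chain, was at 8.97, 9.23 and 10.39 against 9.36, 10.09 and 10.72 (difference −0.68, SE 0.26, and −0.77 with the specimen block, where it did not pass), and its high sensitized value was again dog 2853. For DLA-DRA the difference was −0.26 (SE 0.23), and for CD74, the invariant chain, −0.42 (SE 0.27). DLA genes are alike in sequence and vary between dogs, and probes did not always give the same sign. One of the 4 probes of DLA-DQB1 gave 1.13 and the others −0.42, −0.78 and −0.41. DLA88, which encodes a class I heavy chain, was lower without overlap, with 14.05 to 14.63 in sensitized and 14.67 to 15.45 in nonsensitized dogs (difference −0.59, SE 0.15).

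Of 12 markers of macrophages and dendritic cells 2 were lower at an unadjusted p below 0.05, AIF1 and FCGR3A, and the median was −0.34. Both carry symbols from the study's list. The 6 markers named in that way had a median of −0.43, and of the 6 named through RefSeq none passed and the median was −0.14. AIF1, a protein of macrophages and dendritic cells, was at 10.15, 11.00 and 11.32 against 10.87, 11.63 and 11.95 (difference −0.68, SE 0.22). The scavenger receptor CD163 was at 9.26, 10.20 and 10.77 against 9.86, 10.68 and 11.40 (difference −0.57, SE 0.29). FCGR3A, a receptor for IgG, was well above background in 5 sensitized and 4 nonsensitized dogs and had a difference of −0.44 (SE 0.15), which was −0.25 with the specimen block and did not pass there. The mannose receptor MRC1 (−0.29, SE 0.24) and CD14 (−0.39, SE 0.21) did not pass. The summed signal of the list was 8279 to 17527 in sensitized and 9933 to 24244 in nonsensitized dogs. For AIF1, as for MS4A2 and HDC, the 3 lowest nonsensitized values included those of dogs 2704 and 2716.

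With the specimen block the differences of these lists were wider. The median was −0.69 for antigen presentation, with 8 of 13 lower at an unadjusted p below 0.05, and −0.62 for macrophages and dendritic cells, with 5 of 12 lower. Of the genes named through RefSeq 6 of 9 and 2 of 6 were lower, with medians of −0.72 and −0.54. In the same fit 2.47% of all probes were lower. CTSS was −0.83, DLA-DMA −0.76 and FCGR2B, an inhibitory IgG receptor, −0.91. The specimen term of these lists ran the other way, with medians of 0.55 and 0.50 in favour of numbers 13 to 24, where most sensitized dogs lay. Without dogs 2838 and 2802 the medians were narrower, at −0.18 and −0.14. The differences were then −0.48 for HLA-DMA, −0.35 for CTSS, −0.18 for FCGR2B and DLA-DQB1, and −0.03 for DLA-DMA and DLA-DRA.

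T cell genes were mixed. Of 10 T and NK cell markers, CD4 (0.43, SE 0.15) and CD8A (0.32, SE 0.15) were higher and CD28, the costimulatory receptor of T cells, was lower (−0.45, SE 0.14), being well above background in 5 sensitized and 4 nonsensitized dogs. CD4 was 0.06, CD8A 0.07 and CD28 −0.40 with the specimen block, where none of the T and NK cell markers was higher or lower. Among B and plasma cell genes neither CD38 (−0.14, SE 0.29) nor XBP1 (−0.14, SE 0.13) passed. Among granulocyte genes S100A8 ranged from 14.50 to 16.04 in sensitized and from 14.18 to 16.75 in nonsensitized dogs.

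Few cytokine and chemokine genes differed between the groups. Of 17 cytokines measured, IL1RN and TNFSF13B were lower and none was higher at an unadjusted p below 0.05 (median −0.18). IL1RN, the antagonist of the interleukin-1 receptor, was at 6.98, 7.14 and 7.20 in sensitized and at 7.27, 7.53 and 7.87 in nonsensitized dogs without overlap (difference −0.40, SE 0.10). It was −0.37 with the specimen block and −0.30 to −0.41 within the slides. TNFSF13B, the B cell survival factor BAFF, had a difference of −0.45 (SE 0.20). IL6 was at 5.51, 7.15 and 7.50 against 6.71, 7.48 and 8.01, and its difference of −0.55 (SE 0.33) did not pass. IL33, an alarmin of epithelial cells, was −0.71 (SE 0.47), and its lowest value, 8.69, was that of dog 2838. The same gene was −1.74 with the specimen block and −0.19 without dogs 2838 and 2802.

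Of 21 chemokines CCL25 was higher (0.26, SE 0.10) and none was lower (median −0.15). CCL25 was 0.06 with the specimen block, where no chemokine passed. CCL2, a monocyte attractant, was at 14.53 and 14.57 (medians; difference −0.26, SE 0.36). CCL24, an attractant of eosinophils, was at 5.42, 6.22 and 8.01 against 5.82, 7.45 and 9.33 and did not pass (SE of the difference 0.54). CCL8, another monocyte attractant, differed by 0.03 (SE 0.38). IL13RA2, the decoy receptor for IL-13, was at 7.49, 7.72 and 9.09 against 8.12, 8.56 and 9.35 (difference −0.73, SE 0.28). The high sensitized value was that of dog 2853, and the difference was −0.85, −1.06 and −0.55 within the slides and −0.83 with the specimen block, where it did not pass. Of the type 2 genes IL13 was −0.66 (SE 0.42) and IL31, an itch cytokine, 0.13 (SE 0.15). IL13 was well above background in 3 sensitized and 5 nonsensitized dogs, and IL31 in 5 and 1. The blood cell repressor GFI1 was −0.33 (SE 0.18) and the dehydratase-like SDSL −0.22 (SE 0.31).

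Among 17 genes of the early wound and matrix list ADAMTS4, PTGES and ADM were lower, none was higher, and the median was −0.25. Of the 3 lower genes 1 carries a symbol from the study's list. PTGES, which makes prostaglandin E2, was at 11.27, 11.94 and 12.36 against 12.06, 12.37 and 13.05 (difference −0.60, SE 0.19). ADAMTS4, a protease of cartilage and dermal proteoglycans, was −0.93 (SE 0.42), with the highest value in dog 2847 and the lowest in dog 2855, and −0.89 with the specimen block, where it did not pass. ADM, the vasodilator peptide adrenomedullin, was −0.43 (SE 0.18). PTX3, an opsonin made at sites of injury, was −0.55 (SE 0.36), and the matrix protease MMP9 was −0.65 (SE 0.34), and neither passed. Of 6 immediate early, heat shock and glucocorticoid response genes 1 was lower (HMOX1), 2 had positive differences (FOSB 0.27 and HSPB1 0.13, which did not pass), and the median was −0.13. HMOX1, the enzyme that breaks down haem under oxidative stress, was at 5.82, 7.44 and 8.50 against 7.62, 8.21 and 9.69, with a difference of −1.13 (SE 0.43). Its lowest value was that of dog 2840 and its highest that of dog 2802. Among innate receptors TLR1 (−0.43, SE 0.15) and TLR2 (−0.46, SE 0.19), which together sense bacterial lipoproteins, were lower. TLR2 was −0.54 with the specimen block and did not pass there. The endothelial adhesion genes SELE (−0.33, SE 0.34) and ICAM1 (−0.30, SE 0.25) and the interferon-induced MX1 (−0.45, SE 0.24) did not pass.

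Barrier genes of the epidermis were close in both groups. Of 13 genes of late keratinocyte differentiation only TGM1, which cross-links the cornified envelope, passed an unadjusted p of 0.05 (0.24, SE 0.11), and the median was 0.16. Of these genes 10 were named through the study's list (median 0.10) and 3 through RefSeq (median 0.18). FLG2, a filaggrin-like protein, was at 14.29, 14.96 and 15.35 in sensitized and at 14.29, 14.66 and 15.19 in nonsensitized dogs (difference 0.22, SE 0.19), and the protease gene ASPRV1 differed by 0.02 (SE 0.18). Of 10 junction genes TJP1, a scaffold of tight junctions, was higher (0.30, SE 0.08), with 11.80 to 12.21 against 11.55 to 11.81, and the desmosome gene DSG1 (0.23, SE 0.13) did not pass. IL37, an interleukin-1 family member of keratinocytes, was 0.77 higher (SE 0.27) and carries a symbol from the study's list. In the blocked fit TGM1 was 0.20, TJP1 0.17 and IL37 0.60, and none of them passed. Of the oxidizing enzymes CYP1B1 (1.12, SE 0.40) and CYP3A12 (0.43, SE 0.14) were higher, and FMO2 was not (0.16, SE 0.27). The difference of CYP1B1 was −0.31, 1.44 and 2.43 within the 3 slides, and its dimmer probe gave 0.22. In the blocked fit CYP1B1 was 1.18 and CYP3A12 0.25, and neither passed.

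Other tissue in the punches differed between dogs. Of 5 skeletal muscle markers MYH7 and MYH8 were lower at an unadjusted p below 0.05 and the median was −0.78. MYH7, the slow myosin, was at 5.93, 6.15 and 7.24 against 6.36, 7.58 and 12.11, and the highest value was that of dog 2845. The difference in MYH7 was −1.82, −1.04 without dog 2845 and −0.74 with the specimen block. The difference in MYH8 was −1.52 (SE 0.55) and −0.25 with the specimen block, and neither gene passed there. The summed signal of the muscle list was 584 to 9375 in sensitized and 725 to 15385 in nonsensitized dogs. Hair follicle genes gave 1 of 4 higher, MSX2 (0.47, SE 0.21, and 0.35 with the specimen block, where it did not pass). Of 4 fibroblast genes COL6A3 was lower (−0.47, SE 0.16). Endothelial VWF (0.25, SE 0.18) and KDR (−0.28, SE 0.15) and the fat cell hormone gene ADIPOQ (−0.30, SE 0.25) did not pass. LEP, the fat cell hormone leptin, was 0.60 higher (SE 0.24), but −0.06 with the specimen block and −0.34 by its dimmer probe, and its lowest sensitized value was that of dog 2838. The part of these tissues in the results above was not tested.

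**Figure D4:**
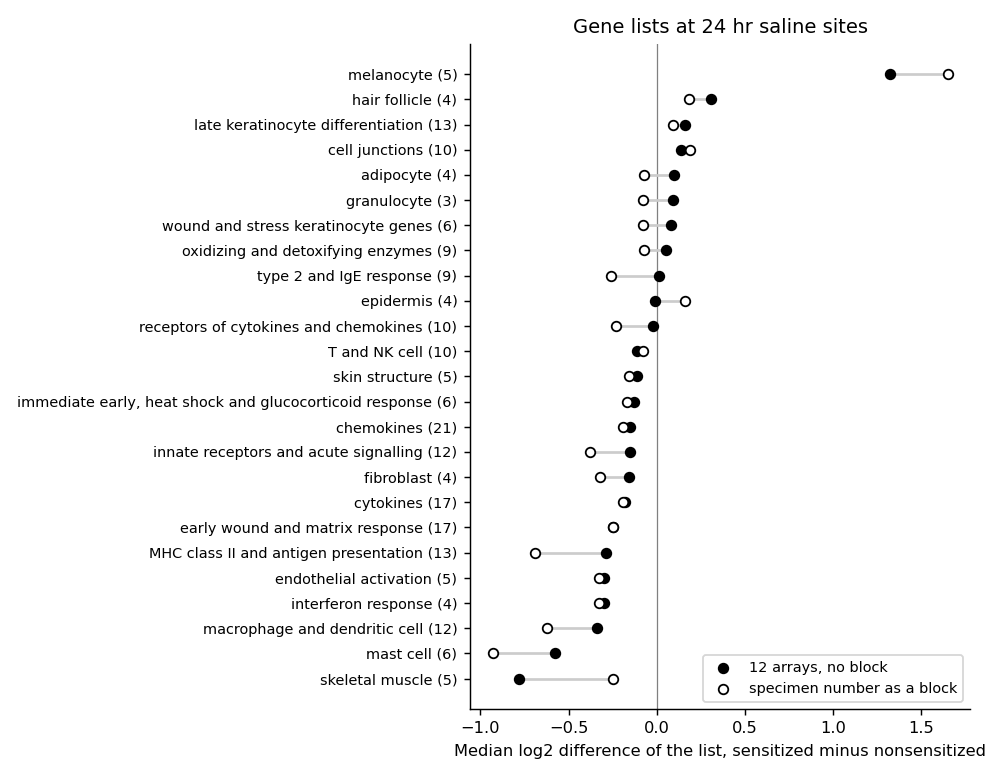
Median log2 difference, sensitized minus nonsensitized, of each gene list with at least 3 measured members (number in brackets) at 24 hr saline sites, filled for the 12 arrays without a block and open with the specimen number as a block. The melanocyte list lies farthest to the right (1.32 and 1.65), and the mast cell list at −0.58 and −0.93.

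Among the genes with a symbol, those of smallest p in each direction were of mixed function. Higher without overlap of the groups were 3 genes, among them PPP1R2, an inhibitor of protein phosphatase 1, and EPB41L5, a membrane scaffold of epithelial cells. PPP1R2 was at 6.56, 6.73 and 6.95 in sensitized and at 5.70, 6.21 and 6.47 in nonsensitized dogs (difference 0.56, SE 0.12). EPB41L5 was at 8.78 to 9.10 against 8.21 to 8.74 (difference 0.38, SE 0.10). The third such gene, DBI, a binding protein of acyl-CoA, was outside the 10 of smallest p, with 15.93 to 16.12 against 15.63 to 15.92 (difference 0.19, SE 0.07). CELA1, a pancreatic elastase that skin also expresses, was 1.22 higher (SE 0.29), ITGA2B, the platelet integrin, 1.06 higher (SE 0.27) and TH, which makes the precursor of dopamine, 1.06 higher (SE 0.28). These 3 genes were lowest of the sensitized dogs in dog 2838 and lowest of all in dog 2800. Probes for a gene did not always give 1 answer, since the dimmer probes of CELA1 gave −0.45 and −0.53 and that of TH gave 0.12. Higher by less were TP73 (0.43), a p53 relative that is expressed in basal epithelium, DHDH (0.56, and 0.22 with the specimen block, where it did not pass) and APRT (0.38), which salvages adenine. EDA, the ligand that starts hair and tooth placodes, differed by 0.36 but was well above background in 5 sensitized and 3 nonsensitized dogs. It was tested only because of its level in the sensitized dogs and is not counted as higher.

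Lower without overlap were IL1RN, DLA88, HAPLN3 (−0.29, SE 0.09) and C1RL, a serine protease related to complement C1r. C1RL was at 10.67, 11.06 and 11.22 in sensitized and at 11.24, 11.59 and 11.95 in nonsensitized dogs (difference −0.62, SE 0.13), and at −0.67 with the specimen block. LYN, a Src kinase of mast cells, B cells and myeloid cells that signals below the IgE receptor, was at 9.28, 9.92 and 10.09 against 9.96, 10.49 and 10.78 (difference −0.63, SE 0.17). Its other probes gave −0.65 and −0.26, and its difference was −0.37, −0.65 and −1.03 within the slides. PHLDA1 (−0.77), CHKB-CPT1B (−0.59), CAPS (−0.51), PRAF2 (−0.46), CYB5R3 (−0.45) and UNK (−0.37) completed the 10 lower genes. Of these PHLDA1 was −0.37 and CYB5R3 −0.18 with the specimen block, and neither passed there. C1RL, CHKB-CPT1B, LYN, PRAF2, PHLDA1, TP73 and APRT owe their symbols to the study's list, as does HAPLN3, so their presence here is not independent. HAPLN3 and DBI were named after their values were seen. Without a symbol, ENSCAFT00000005686 was 0.69 higher (SE 0.11), ENSCAFT00000020109 was 1.01 higher (SE 0.18) and XM_545719.1 had a difference of −0.61 (SE 0.09). With the specimen block the 3 differences were 0.49, 0.78 and −0.56. In untreated skin, in the joint fit, the first was −0.16 (SE 0.21) and the last 0.11 (SE 0.12). These identifiers were chosen for their small p at 24 hr saline sites, so a smaller difference at another site is not a separate finding.

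Whether the 24 hr differences exceeded those of the same dogs at other control sites was tested as an interaction in a limma fit of 59 arrays. No DEG was found against untreated skin, where 7.02% of the 45972 probes were positive and 4.6% negative at an unadjusted p below 0.05, and none against 6 hr saline sites, with 8.78% and 4.72%. With the dog as a block 4 and 793 DEG were found, and with blocks of 12 specimen numbers 0 and 0. The 0 hr and 6 hr arrays all had numbers above 24, so these tests also set arrays 1 to 12 against later numbers. Of the genes with a symbol named above, COL6A3 (−0.99, SE 0.27), ADM (−0.61, SE 0.18), CAPS (−0.54, SE 0.16) and UNK (−0.40, SE 0.13) had the smallest p against untreated skin, each with an adjusted p of 0.333. Against 6 hr saline sites these were PRAF2 (−0.62, SE 0.17) and CYB5R3 (−0.58, SE 0.18), each with an adjusted p of 0.181. COL6A3, 1 of the 4 fibroblast genes, was 0.52 higher in sensitized dogs in untreated skin. The median of the fibroblast list was 0.54 there, with 3 of 4 genes higher, and −0.17 at 24 hr saline sites. The increments of the list against untreated skin had a median of −0.84, and its change was not tested. In the 12 saline arrays the list median was 0.43, −0.56 and −0.68 within the 3 slides. It was 0.21 within numbers 1 to 12 and −0.71 within numbers 13 to 24.

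The mast cell list had a median difference of −0.20 in untreated skin, −0.41 at 6 hr saline sites with 2 of 6 genes lower, and −0.58 at 24 hr saline sites, all on the scale of the 59 arrays. HDC was −0.63 at 6 hr saline sites (SE 0.23). The increments against untreated skin were −0.53 for MS4A2 (SE 0.38) and −0.40 for HDC (SE 0.32) and did not pass. Antigen presentation genes had medians of −0.01, −0.24 and −0.29. AIF1 was 0.01 in untreated skin, and its increment of −0.70 (SE 0.34) had an adjusted p of 0.419. At the allergen sites of the same dogs at 24 hr the medians were 0.47 for mast cell genes, 0.72 for antigen presentation and 0.86 for melanocyte genes. The allergen arrays carry the same imbalance, since those of the nonsensitized dogs had numbers 1 to 12 except for dog 2802, and those of the sensitized dogs numbers 13 to 24 except for dog 2841. With the specimen block the allergen medians were 0.07, 0.32 and 1.08. The difference between allergen and saline sites was not tested here.

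**Figure D5:**
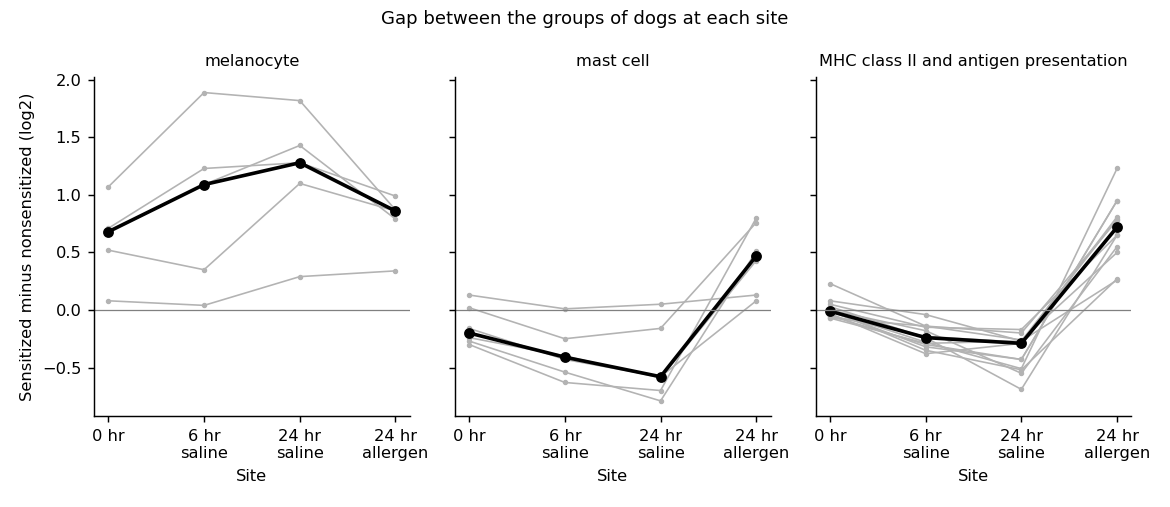
Difference between sensitized and nonsensitized dogs (vertical axis, log2) in untreated skin, at 6 hr and 24 hr saline sites and at 24 hr allergen sites, grey for single genes and black for the median of the melanocyte (5 genes), mast cell (6) and antigen presentation (13) lists, all from the fit of 59 arrays. Melanocyte genes are positive at every site, while the medians of the mast cell and antigen presentation lists are negative at saline sites and positive at allergen sites. The plotted values are without the specimen block, with which the mast cell median at allergen sites is 0.07.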

How the data were processed

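Whole-skin RNA was measured on canine Agilent arrays of 1 colour. The deposited values are intensity values, the processed spot signals that the authors obtained with Feature Extraction 10.7.3.1 per the submitters' processing notes, background-subtracted and not scaled between arrays. Outlier spots were set to missing, spots well above background on at least 5 of 6 arrays of either group were kept, signals were variance-stabilized (the vsn model reimplemented in numpy 2.4.6 and tested on simulated data), and spots of a probe were averaged. Replicates are single dogs. limma 3.58.1 (R 4.3.3) fitted the 12 arrays unpaired, and the sites jointly over 59 arrays, without the 24 hr allergen array of dog 2839, which the study had excluded. The limma p-values were adjusted by Benjamini-Hochberg. On simulated data of this comparison, 81% of 2-fold and 95% of 4-fold changes among 44219 probes were recovered, with 7 false calls. The simulated noise was independent between probes and held no shift by specimen number. These values therefore do not measure recovery or false calls in the real arrays. Symbols came from RefSeq identifiers (865) and from lists of the study (401). A gene was given by its brightest probe. Named genes were the 10 of smallest p in each direction, the first 3 members of each list, genes set by hand and the 2 unnamed identifiers of smallest p in each direction, and list members past an unadjusted p of 0.05, a member of which is not reported here. List members that are not named enter the counts and medians of their lists. The comparison, genes and lists were chosen with earlier results of these data known. Alternatives were other scalings, backgrounds, filters, blocks, weights, thresholds and each dog left out. The authors' own fold changes and p-values were not used. The dog number pairs the sites of a dog, which the match of arrays by dog also showed, and never pairs the groups. Number of arrays, with 6 dogs per group, limits the precision.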

Additional observations from a re-analysis of the deposited data

Results flagged for a closer look

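In 17 of the 202 sets of 6 dogs examined, 1 dog stood apart from the rest of its group by its gap to the next dog relative to the range, where chance alone gives about 1 in 20. In sensitized dogs, dog 2853 was high in CIITA, the regulator of MHC class II genes (10.80), in DLA-DQA1 (10.39), CD74 (9.60), IL13RA2 (9.09) and the itch cytokine IL31 (5.81), and low in FMO2, a flavin monooxygenase (8.83). Dog 2855 was low in CD14, the coreceptor for bacterial lipopolysaccharide (8.08), and in ICAM1 (10.91). Dog 2838, the sensitized dog with a specimen number below 13, was low in CCL25 (5.61), DHDH (7.90) and LEP (7.83) and high in UNK (11.42), and its array had the lowest share of spots well above background among the sensitized dogs (70.4%). In nonsensitized dogs, dog 2716 was high in DSG1 (13.19) and low in COL6A3 (7.40) and CHKB-CPT1B (9.33), and dog 2847 was high in PHLDA1 (10.45).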

How the results depend on the processing

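The single DEG was lost with scaling to the 75th percentile, normexp with quantile scaling, no filter, the slide, the scan session or the specimen number as a fixed block, the slide or blocks of 12 numbers in the joint fit, and treat (0 DEG in each), and the cause was not tested. There were 142 DEG at an unadjusted p below 0.002, 1087 in the joint fit of 59 arrays, 1198 there with the dog as a replicate block, 3204 with array weights and 3842 without dogs 2838 and 2802. Leaving out 1 dog gave 0 to 2521 DEG: 2521 without dog 2838, 50 without dog 2802, 3 without dog 2855, and 0 without 2839, 2840, 2841, 2853, 2716, 2800 or 2847. Identifiers at an unadjusted p below 0.05 numbered 8329 (4824 higher, 3540 lower, some counted in both where their probes disagree), against 4125 with the slide, 4830 with the scan session and 2134 with the specimen number as a block, 2480 with blocks of 12 numbers in the joint fit, 15996 with array weights, 15380 without dogs 2838 and 2802, and 5455 (without dog 2840) to 12820 (without dog 2838) with 1 dog left out. The split followed the scaling, with 5971 higher and 2536 lower at the 75th percentile and 2936 and 5475 without scaling, where the median of all probes was −0.11.

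The interaction with untreated skin gave 0 DEG, with 155 at an unadjusted p below 0.002, 4 with the dog as a replicate block, and 0 to 860 with 1 dog left out (860 without dog 2802, 10 without dog 2838). That with 6 hr saline sites gave 0, with 360, 793, and 0 to 2323 (2323 without dog 2838, 2209 without dog 2802) under the same changes.

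Of 2763 values of 99 named genes from refits, 42 turned their sign, in 12 genes, of which LEP alone had differed at an unadjusted p below 0.05 (−0.06 with the specimen number as a block). Of their 297 differences within a slide, 27 in 25 genes had the opposite sign, 8 of these genes at an unadjusted p below 0.05 (CD8A, CYB5R3, CYP1B1, DHDH, LEP, MSX2, MYH7 and MYH8). KIT was −0.07 without scaling, −0.01 without a filter and with the specimen number as a block, −0.04 with blocks of 12 numbers in the joint fit, and −0.01 to 0.14 with 1 dog left out. CCL8 was −0.12 without scaling, −0.01 with normexp, −0.06 without a filter, −0.04 with the slide, −0.25 with the specimen number, −0.07 and −0.30 with slide and blocks of 12 in the joint fit, and −0.14 to 0.31 with 1 dog left out. ASPRV1 was −0.13 without scaling, −0.07 without a filter, −0.03 with array weights, −0.05 without dogs 2838 and 2802 and −0.07 to 0.11 with 1 dog left out. With the specimen number and with blocks of 12 numbers FLG2 was −0.02 and −0.09, VWF −0.23 and −0.19, and IL31 −0.01 and −0.06. FCER1G was 0.04 and CD38 0.05 without dogs 2838 and 2802, SDSL 0.03 with array weights, and CCL2 −0.39 to 0.04, CD38 −0.33 to 0.00 and FMO2 0.00 to 0.39 with 1 dog left out. TC65471 kept its sign throughout.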
